A study of Mus musculus with 10 samples.

Results

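The 39 genes described here are the receptors, STAT and IRF factors and induced genes of the type I interferon response, taken from a fixed list of symbols out of 24538 genes in the count files. All 39 were found in the counts and in the FPKM table, and 38 passed the filter on low counts. Only Ifitm1 did not. RNA came from live CD31+/CD45- cells sorted from dissected lung metastases (5 libraries) and from normal lung (5 libraries). CD31 marks endothelial cells and CD45 marks leukocytes. The metastases grew from cells of the mammary tumour line E0771-LG that had been injected into the tail vein of female C57BL6/J mice aged 6 to 8 weeks. Metastases under 1 mm across were pooled from 2 to 4 mice. How many mice gave each normal lung library is not given in the sources used here. All samples carry the labels wild type, C57BL6/J and an age of 8 to 10 weeks, and all digestions contained the transcription inhibitors alpha-amanitin and actinomycin D for 30 min at 37 °C.

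Type I interferons are cytokines that cells release when they detect viral or misplaced nucleic acid. They bind the receptor pair IFNAR1 and IFNAR2, and the kinases JAK1 and TYK2 then phosphorylate STAT proteins, STAT2 among them. With IRF9 these form a complex that binds interferon-stimulated response elements in promoters and switches on genes whose proteins block viral entry, translation and replication. In endothelium the same response is known to restrain vessel growth and to raise chemokines that attract lymphocytes.

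Counts assigned to genes came to between 21677429 and 54266459 per metastasis library and between 41004704 and 79710581 per normal library. The summed CPM (reads per 1e6 reads assigned to genes, on TMM-scaled libraries) of 19 pan-endothelial genes were 1220 to 7660 in metastases and 13900 to 26400 in normal lung. Those of 12 macrophage genes were 989 to 1920 in metastases and 431 to 671 in normal lung. Mertk alone averaged 444 CPM in normal lung, where the macrophage sum averaged 562 CPM. In metastases Mertk averaged 48.1 CPM and the macrophage sum 1350 CPM, so most of the normal lung sum was Mertk. For 10 general leukocyte genes they were 140 to 539 in metastases and 10.4 to 48.4 in normal lung, and for 8 fibroblast genes 351 to 917 in metastases and 6.69 to 78.8 in normal lung. Each of these 4 sums had an exact permutation p of 0.00794, the smallest that 5 against 5 allows, and 0.0139 after adjustment over 7 measures. Of the macrophage genes 5 of 9 tested rose and 1, Mertk, fell, of the leukocyte genes 4 of 7 rose, and of the pan-endothelial genes 16 of 19 fell. Pecam1, which encodes CD31, had 644 ± 508 CPM in metastases and 2410 ± 864 CPM in normal lung, and Ptprc, which encodes CD45, had 121 ± 25.6 CPM in metastases and 17.8 ± 7.31 CPM in normal lung (SD, n = 5 each), so the gene of the marker sorted against was detected in all libraries. No macrophage gene was at 0 in all libraries of a group, and Nkg7 was the one leukocyte gene at 0 in all normal libraries. The 6 plasmacytoid dendritic cell genes, markers of a cell type that makes much type I interferon, summed to 224 to 788 CPM in metastases and 777 to 1090 CPM in normal lung (exact permutation p = 0.0159, adjusted 0.0222). Tcf4, which endothelium also expresses, averaged 904 of 908 CPM in normal lung and 367 of 377 CPM in metastases. That p therefore describes Tcf4 more than the list. Of the 2 tested genes Tcf4 fell, and Ccr9 did not pass (2.02 ± 1.55, edgeR adjusted p = 0.406). Ly6d and Klk1 were at 0 in all 10 libraries. Interferon genes are expressed by all of these cell types, and the part of such cells in the results below was not tested. In sorted bulk samples, fewer cells of a type and less RNA per cell cannot be told apart.

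Of the 38 tested members 6 rose in metastases (15.8%) and 1 fell (2.63%), against 12.0% and 8.22% of all 11823 tested genes, so the share that rose was near that of genes at large. In either direction 7 members passed, against 20.2% of all tested genes. The risen genes were Oas3, Rsad2, Ifit1, Ifi44, Eif2ak2 and Trim25, and the fallen gene was the receptor gene Ifnar2. In CPM the 2 groups did not overlap in 6 members (15.8%), against 14.7% of all tested genes. All metastasis libraries were above all normal ones in 5 members, against 8.50% of tested genes, and below them in 1, against 6.17%. On the deposited FPKM the groups did overlap for Ifnar2, Eif2ak2 and Mx2, which are among these 6. Conversely, Zbp1, Mx1 and Cmpk2 overlapped in CPM but not on FPKM, where all their metastasis libraries were above all normal ones. The share of all genes without overlap on FPKM was not computed. Fitted log2 fold changes were above 0 in 26 of 38 members (68.4%), against 51.5% of all tested genes, and their median was 0.89, against 0.06 for all tested genes. At an unadjusted p under 0.05, 10 members were higher and 2 lower. The share of all tested genes under that limit was not computed, so these counts have no baseline here. The other 31 tested members did not pass. Their standard errors ran from 0.36 to 1.42 on the log2 scale. A fitted change of more than 2-fold was upwards in 12 of them and downwards in Ifnar1 and Ifi35. A missed threshold therefore does not show equal levels. The share of all tested genes with such changes was not computed. With DESeq2, 11 members rose, against 18.4% of all genes it tested, and 1 fell, against 12.8%. Scaled to the pan-endothelial genes, which raised the median of all genes to 2.66, 33 members were higher, against 56.3% of tested genes, and none was lower, against 0.161% (56.5% in either direction), and all 12 members with a fitted value below 0 turned positive. Libraries 1 and 2 of both groups stand together in the column order of the deposited FPKM table, ahead of libraries 3 to 5, and each set was also compared alone. Within libraries 1 and 2, 3 members rose, against 3.87% of tested genes, and 0 fell, against 1.60%. Within libraries 3 to 5 alone 5 rose, against 9.29%, and 1 fell, against 6.39%.

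**Figure D1:**
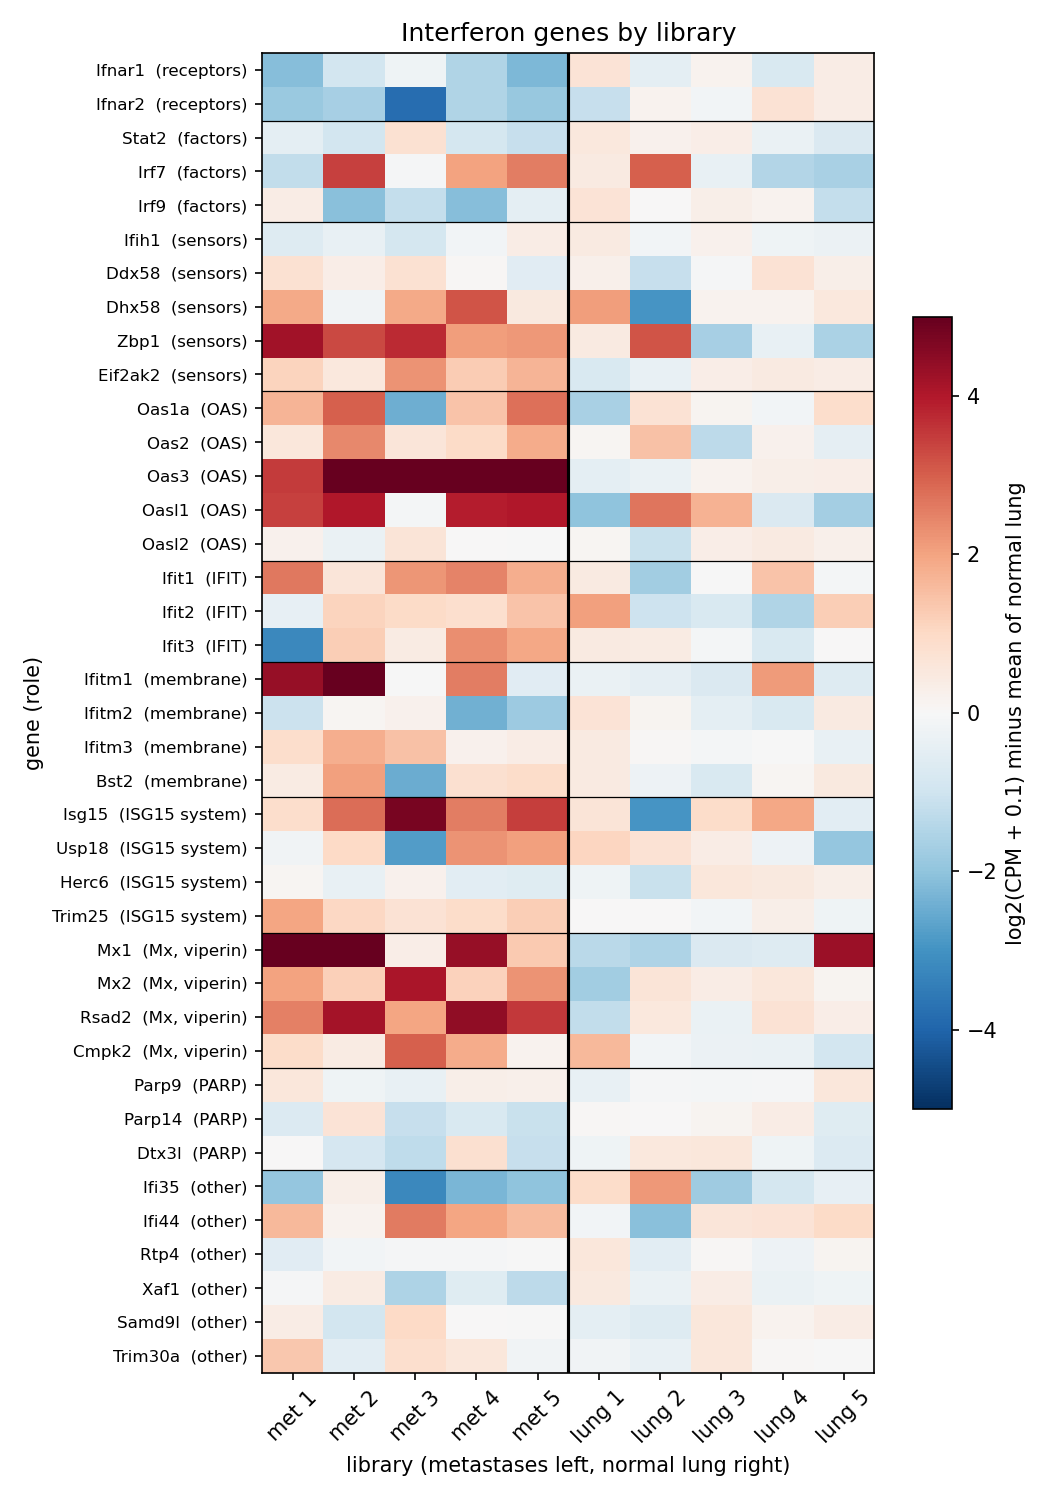
Each row is 1 of the 39 genes, ordered by role, and each column 1 library, metastases left and normal lung right. Colour gives log2(CPM + 0.1) minus the mean of normal lung on that scale, with the scale ending at 5 in both directions. Oas3 and Rsad2 are above the normal mean in all 5 metastasis libraries, and Oas1a, Usp18 and Bst2 are below it in metastasis library 3 but mostly above it in the other metastasis libraries.

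**Figure D2:**
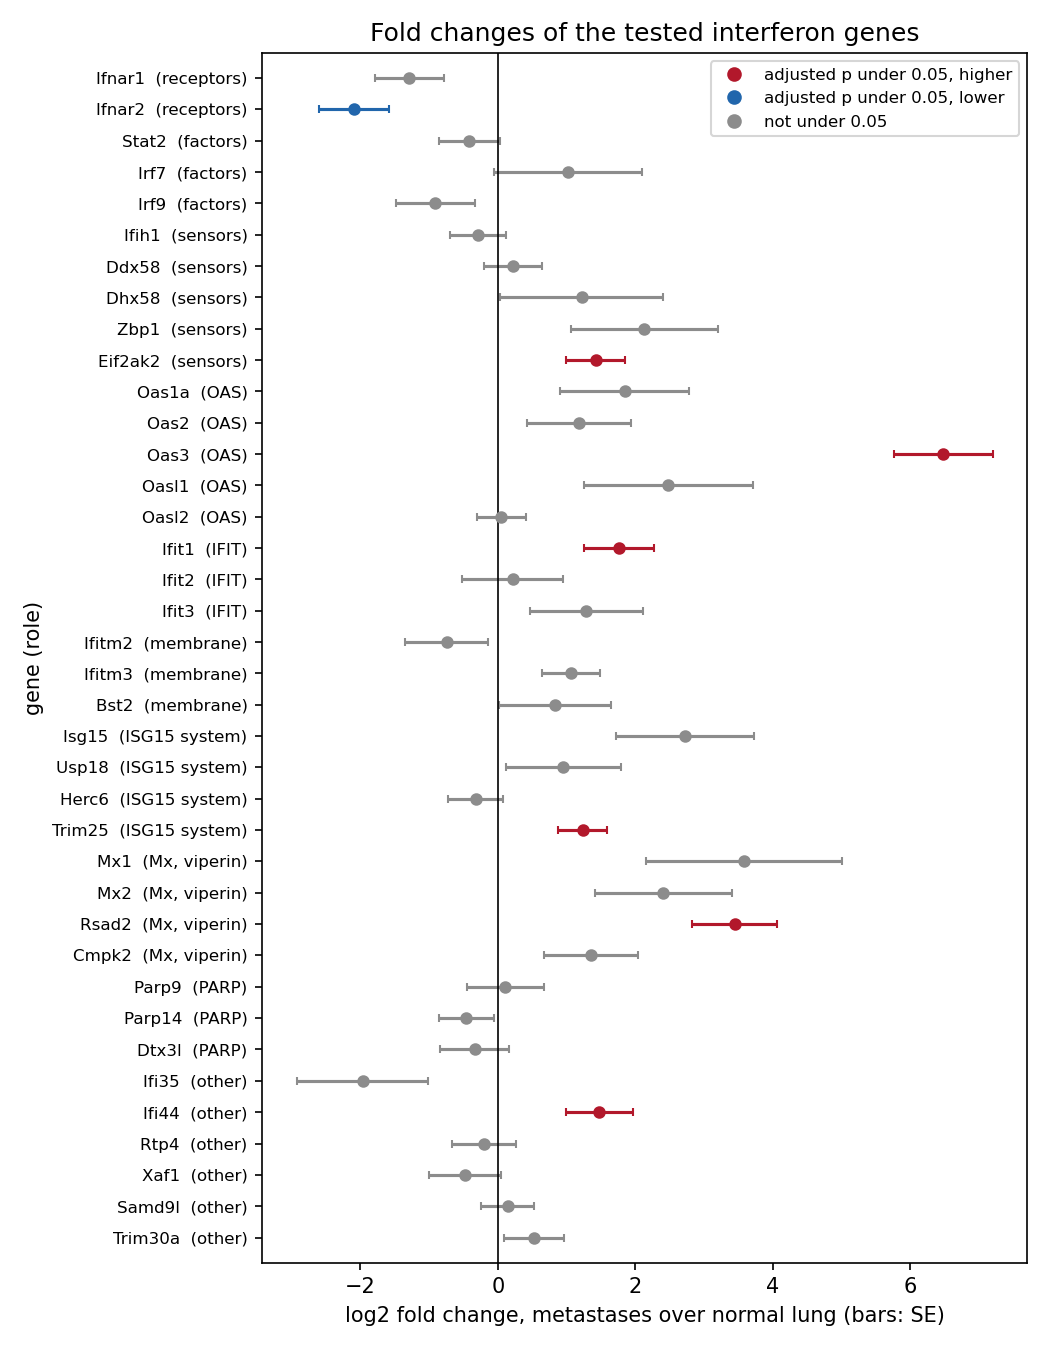
Points are log2 fold changes of the 38 tested genes, metastases over normal lung, with bars of 1 SE, ordered by role. The 6 red points are the genes that rose, between 1.23 (Trim25) and 6.48 (Oas3), and the blue point is Ifnar2 at -2.09, which was at 0.60 when libraries were scaled to the pan-endothelial genes.

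Promoter sequences from RefSeq (250 bases before to 50 after the start, GRCm38.p6) were found for 30 of the 39 members. They were searched on both strands for the core of the interferon-stimulated response element, spelled GAAANNGAAA. It was present in 14 of 30 members (46.7%), against 3.99% of the 27025 genes in the table. The members were listed for their response to interferon, so this share describes the list. It was present in 4 of the 6 risen genes (Oas3, Rsad2, Ifit1 and Eif2ak2), in 10 of the 22 members with a promoter that did not pass, and not in Ifnar2. The motif TTCNNNGAA, the core of STAT dimer sites, was present in 8 members (26.7%), against 9.55% of all genes. The promoters of Dhx58, Zbp1, Oas2, Usp18, Mx1, Mx2, Parp9, Parp14 and Rtp4 were not used here. The 60 bases around the response element are shown for the 3 risen genes with a match before the start, and for Isg15, in which 3 matches overlap. Capitals mark GAAANNGAAA or its reverse complement, and each sequence runs 5′ to 3′ on the gene's strand.
Oas3 (chr5:120777700-120777759, minus strand): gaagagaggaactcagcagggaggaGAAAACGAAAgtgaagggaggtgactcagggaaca
Rsad2 (chr12:26456538-26456597, minus strand): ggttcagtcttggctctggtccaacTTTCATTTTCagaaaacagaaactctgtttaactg
Ifit1 (chr19:34640779-34640838, plus strand): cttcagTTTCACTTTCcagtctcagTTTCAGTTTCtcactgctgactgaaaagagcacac
Isg15 (chr4:156200856-156200915, minus strand): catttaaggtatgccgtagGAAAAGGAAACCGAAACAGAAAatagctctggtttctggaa
The 3 risen genes each hold at least 1 copy in these windows, Ifit1 holds 2 separate copies, and Isg15, whose adjusted p was 0.0572, holds the longest stretch, which runs from 78 bases before the start.

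The receptor genes were both lower by the fitted value, and 1 passed. Ifnar2, the chain that recruits STAT2 (chromosome 16, 91372783 to 91405589), had 50.5, 58.2, 13.2, 64.8 and 50 CPM in metastasis libraries 1 to 5, against 82.5, 211, 169, 307 and 239 CPM in normal lung libraries 1 to 5. In CPM all metastasis libraries lay below all normal ones. It fell 4.26-fold (log2 fold change -2.09 ± 0.51 SE, n = 5 each, edgeR adjusted p = 0.00485), and scaled to the pan-endothelial genes it was at 0.60 (adjusted p = 0.5). It also fell on the deposited FPKM, with a mean of 38.5 ± 24.6 in metastases and 143 ± 49.0 in normal lung (SD, n = 5 each). The FPKM groups overlapped, with 64.9 in metastasis library 1 and 61.8 in normal lung library 1. Ifnar2 did not pass within libraries 1 and 2 alone (-1.42, edgeR adjusted p = 0.372). Its locus overlaps Gm21970 on the same strand. Of the 39 members, 16 overlap another annotated gene on either strand, Eif2ak2 among them, and what this did to the counts was not tested. Ifnar1, the chain bound by TYK2, had 71.9 ± 45.1 CPM in metastases and 176 ± 67.4 CPM in normal lung (-1.29 ± 0.50, edgeR adjusted p = 0.0714; 1.15 with pan-endothelial scaling). Without metastasis replicate 3, which had the highest value of its group at 143 CPM, Ifnar1 was at -1.72 (adjusted p = 0.0122).

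None of the 3 transcription factor genes passed. Stat2, the STAT that brings the activation domain to the complex, had 142, 106, 342, 108 and 89.6 CPM in metastasis libraries 1 to 5, against 287, 232, 251, 159 and 122 CPM in normal lung libraries 1 to 5. The groups overlapped, and the highest of all 10 values was metastasis library 3 (-0.42 ± 0.45, edgeR adjusted p = 0.577; 2.03 with pan-endothelial scaling). Irf9, the DNA-binding part of that complex, averaged 60.2 ± 46.0 CPM in metastases and 113 ± 44.4 CPM in normal lung (SD, n = 5 each; -0.91 ± 0.57, edgeR adjusted p = 0.293; 1.72 with pan-endothelial scaling), and its locus overlaps Rnf31 on the same strand. Irf7, which amplifies interferon production, ranged from 2.03 to 53.5 CPM in metastases and from 1.54 to 40.4 CPM in normal lung (1.02 ± 1.07, edgeR adjusted p = 0.567). Normal lung library 2 had the highest normal value, 40.4 CPM, with the next at 6.84 CPM.

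Among 5 genes of nucleic acid sensors 1 rose. Eif2ak2, the kinase PKR that halts translation when it binds double-stranded RNA (chromosome 17, 78852564 to 78882573), had 216, 143, 474, 235 and 323 CPM in metastasis libraries 1 to 5, against 58.1, 76.5, 123, 135 and 127 CPM in normal lung libraries 1 to 5. In CPM every metastasis library lay above every normal one, though the lowest, 143 CPM, was close to the highest normal value of 135 CPM. The FPKM groups overlapped, with 22.4 in metastasis library 2 and 27.3 in normal lung library 4. Eif2ak2 rose 2.68-fold (1.42 ± 0.43 SE, n = 5 each, edgeR adjusted p = 0.0211). The call was lost without normal lung replicate 1 (adjusted p = 0.0626) or 2 (0.056), without metastasis replicate 3 (0.0642) or 5 (0.0534), with limma on log2(FPKM + 1) (0.0664), within libraries 1 and 2 alone (0.316) and without both metastasis replicates 4 and 5 (0.0813). Ddx58, the RNA sensor RIG-I, had 292, 217, 290, 178 and 118 CPM in metastasis libraries 1 to 5, against 206, 77.2, 164, 283 and 209 CPM in normal lung libraries 1 to 5. The ranges overlapped (0.22 ± 0.42, edgeR adjusted p = 0.764). Ifih1, the sensor MDA5, had 160 ± 57.1 CPM in metastases and 196 ± 45.4 CPM in normal lung (SD, n = 5 each; -0.29 ± 0.40, edgeR adjusted p = 0.677; 2.70 with pan-endothelial scaling). Dhx58, the regulator LGP2, had 2.04 to 21.5 CPM in metastases and 0.215 to 10.3 CPM in normal lung (1.22 ± 1.19, edgeR adjusted p = 0.535). Zbp1, a sensor of left-handed nucleic acid that triggers cell death, had 44.8, 24.0, 32.6, 10.2 and 10.8 CPM in metastasis libraries 1 to 5, against 3.22, 21.5, 0.682, 1.80 and 0.729 CPM in normal lung libraries 1 to 5. Normal lung replicate 2 alone overlapped the metastases in CPM (2.13 ± 1.07, edgeR adjusted p = 0.177), and without it Zbp1 was at 3.90 (adjusted p = 0.0211). Zbp1 also passed with DESeq2 (0.0399) and with limma on log2(FPKM + 1) (0.00244).

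Of the 5 genes of the oligoadenylate synthetase family 1 rose, and its change was the largest of all members. OAS enzymes respond to double-stranded RNA by making short adenylate chains that activate the nuclease RNase L. Oas3, the longest of them (chromosome 5, 120753098 to 120777661), had 22.6, 199, 304, 217 and 134 CPM in metastasis libraries 1 to 5, against 1.33, 1.52, 2.16, 2.40 and 2.43 CPM in normal lung libraries 1 to 5. The lowest metastasis value was above the highest normal value, and the normal values lay close together. Behind them stood 667 to 13032 counts per metastasis library and 87 to 127 counts per normal library. Oas3 rose 89.1-fold (6.48 ± 0.72 SE, n = 5 each, edgeR adjusted p = 9.31e-07), and it passed in all 25 alternatives run. In FPKM it averaged 46.3 ± 29.1 in metastases and 0.602 ± 0.226 in normal lung (SD, n = 5 each).

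The other OAS genes, all on chromosome 5 too, had smaller fitted changes. Whether they differ from Oas3 was not tested. Oasl2, in the mouse an enzyme-active OAS-like protein, had 706, 478, 953, 614 and 601 CPM in metastasis libraries 1 to 5, against 650, 279, 775, 821 and 719 CPM in normal lung libraries 1 to 5. The groups overlapped throughout (0.05 ± 0.36, edgeR adjusted p = 0.945). Oas1a averaged 31.5 ± 23.9 CPM in metastases and 8.77 ± 4.58 CPM in normal lung (1.84 ± 0.94, edgeR adjusted p = 0.183), and Oas2 42.3 ± 25.6 CPM in metastases and 18.7 ± 14.0 CPM in normal lung (1.18 ± 0.76, 0.308). Oasl1, which in the mouse is known to hold back Irf7 translation, had 14.9 ± 8.20 CPM in metastases and 2.67 ± 3.39 CPM in normal lung (2.48 ± 1.23, edgeR adjusted p = 0.172; DESeq2 adjusted p = 0.0366). Metastasis library 3 was the lowest of its group for both Oas1a (1.29 CPM) and Oasl1 (1.09 CPM), while it was the highest for Oas3.

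**Figure D3:**
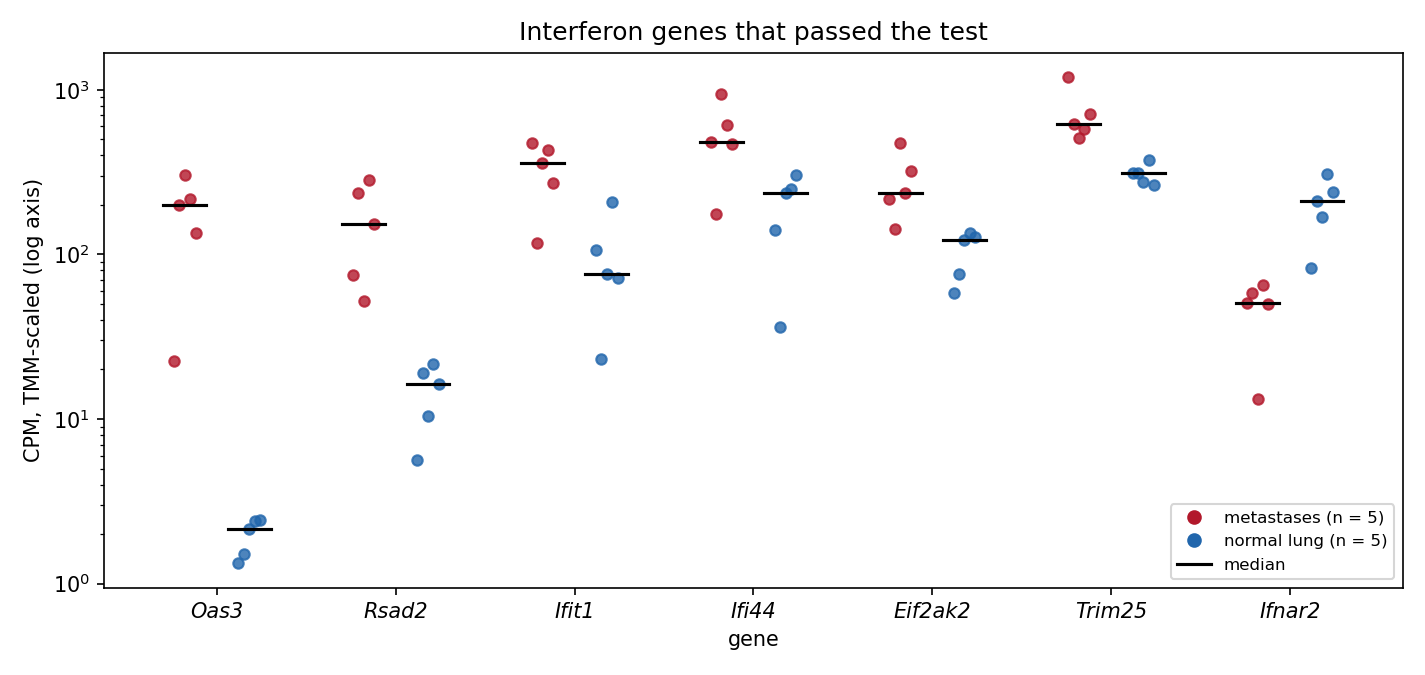
CPM on a log axis of the 7 genes that passed, with 1 point per library, metastases left and normal lung right of each pair, and a bar at the median. Oas3, Rsad2, Eif2ak2 and Trim25 have all 5 metastasis libraries above all 5 normal ones, Ifit1 and Ifi44 overlap, and Ifnar2 has all metastasis libraries below.

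One of the 3 IFIT genes rose. IFIT proteins bind viral RNA that lacks host cap marks. Ifit1 (chromosome 19, 34640871 to 34650009) had 477, 117, 357, 428 and 273 CPM in metastasis libraries 1 to 5, against 106, 23.2, 75.6, 209 and 72.2 CPM in normal lung libraries 1 to 5. Metastasis library 2 and normal library 4 overlapped. Ifit1 rose 3.40-fold (1.77 ± 0.51 SE, n = 5 each, edgeR adjusted p = 0.0147), and it kept an adjusted p of at most 0.042 without any 1 library, but missed the threshold within libraries 3 to 5 alone (0.0536), within libraries 1 and 2 alone (0.107), and without both metastasis replicates 4 and 5 (0.0584). Ifit3, whose human counterpart stabilises IFIT1, ranged from 1.69 to 84.8 CPM in metastases and from 9.91 to 22.5 CPM in normal lung (1.29 ± 0.83, edgeR adjusted p = 0.304), with metastasis library 1 the lowest of all 10. Ifit2 had 46.9 ± 17.7 CPM in metastases and 40.3 ± 42.2 CPM in normal lung (SD, n = 5 each; 0.22 ± 0.73, edgeR adjusted p = 0.876). The IFIT, OAS, IFITM and MX families hold near-identical copies. The gene counts left out reads aligned to more than 1 place, 18441711 to 26251497 per library. How many of these came from such families is not known, so the values of single members are uncertain.

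No gene of the membrane-acting proteins passed. IFITM proteins stop viruses from fusing with endosomes or the cell surface, and BST2, or tetherin, holds budding virus at the membrane. Ifitm3 had 216, 423, 328, 139 and 154 CPM in metastasis libraries 1 to 5, against 160, 123, 110, 117 and 92.0 CPM in normal lung libraries 1 to 5. Metastasis libraries 4 and 5 lay within the normal range (1.06 ± 0.42, edgeR adjusted p = 0.0764). It passed with library totals (0.0221), with limma on log2(FPKM + 1) (0.0495), and without metastasis replicates 4 and 5, which hold the least pan-endothelial RNA (1.38, 0.0481). Ifitm2 averaged 49.1 ± 34.9 CPM in metastases and 82.3 ± 32.7 CPM in normal lung (-0.75 ± 0.61, edgeR adjusted p = 0.441; 1.5 with pan-endothelial scaling). Ifitm1 was below the filter, at 4.06, 17.7, 0.0992, 1.10 and 0.0353 CPM in metastasis libraries 1 to 5 and at most 0.782 CPM in normal lung. Bst2 had 32.4 ± 25.3 CPM in metastases and 18.3 ± 6.09 CPM in normal lung (0.82 ± 0.82, edgeR adjusted p = 0.54).

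In the ISG15 system, in which a ubiquitin-like protein is attached to newly made proteins, 1 of 4 genes rose. Trim25, a ubiquitin ligase that activates RIG-I and can also attach ISG15 (chromosome 11, 88999376 to 89020293), had 1190, 621, 506, 581 and 717 CPM in metastasis libraries 1 to 5, against 314, 312, 275, 375 and 264 CPM in normal lung libraries 1 to 5. The groups did not overlap, and the normal values varied least of all members relative to their mean. Trim25 rose 2.35-fold (1.23 ± 0.35 SE, n = 5 each, edgeR adjusted p = 0.0139). It missed the threshold within libraries 1 and 2 alone (1.55, 0.132) and libraries 3 to 5 alone (0.97, 0.0954). Isg15 itself had 6.02, 23.5, 91.0, 19.8 and 36.9 CPM in metastasis libraries 1 to 5, against 5.17, 0.335, 6.33, 12.7 and 2.21 CPM in normal lung libraries 1 to 5. Metastasis library 1 lay within the normal range (2.73 ± 1.00, edgeR adjusted p = 0.0572), and Isg15 passed without it (0.0311), without normal lung replicate 4 (0.0425) and with DESeq2 (0.00725). Usp18, which removes ISG15 and blocks IFNAR2 signalling, ranged from 2.58 to 88.1 CPM in metastases and from 4.73 to 39.2 CPM in normal lung (0.95 ± 0.83, edgeR adjusted p = 0.479). Herc6, the main ISG15 ligase of the mouse, had 200 ± 52.3 CPM in metastases and 250 ± 98.2 CPM in normal lung (-0.32 ± 0.40, edgeR adjusted p = 0.64; 2.10 with pan-endothelial scaling).

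Rsad2 and its neighbour Cmpk2, and the MX genes, had fitted values above 0, and Rsad2 passed. Rsad2 encodes viperin, which makes a nucleotide that ends viral RNA chains (chromosome 12, 26442746 to 26456452). It had 75.3, 235, 52.1, 284 and 152 CPM in metastasis libraries 1 to 5, against 5.60, 19.1, 10.4, 21.7 and 16.4 CPM in normal lung libraries 1 to 5. All metastasis libraries were higher than all normal ones. Rsad2 rose 10.9-fold (3.45 ± 0.62 SE, n = 5 each, edgeR adjusted p = 0.000344) and passed in all 25 alternatives run. Cmpk2, a mitochondrial nucleotide kinase that supplies viperin, starts on the opposite strand beside it (chromosome 12, 26469204 to 26479837). It had 83.5 ± 74.4 CPM in metastases and 32.7 ± 28.0 CPM in normal lung (1.35 ± 0.69, edgeR adjusted p = 0.181), with normal lung library 1 at 82.3 CPM and the other normal libraries at 13.9 to 24.3 CPM. The 2 units disagree for that library, which was at 8.5 FPKM, with the other normal libraries at 4.75 to 7.9 FPKM. Metastases had 9 to 80.7 FPKM. Cmpk2 passed within libraries 3 to 5 alone (2.54, 0.0432), and its sign turned within libraries 1 and 2 alone (-0.32, 0.917).

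Mx2, a dynamin-like GTPase, had 15.2, 8.58, 63.3, 8.42 and 17.9 CPM in metastasis libraries 1 to 5, against 1.04, 5.83, 4.85, 5.58 and 4.02 CPM in normal lung libraries 1 to 5. In CPM the groups did not overlap, but the spread was wide and it did not pass (2.41 ± 0.99, edgeR adjusted p = 0.0913, DESeq2 adjusted p = 0.00389). On FPKM Mx2 overlapped between groups, with 1.36 in metastasis library 1 and 2.52 in normal lung library 3. In metastasis library 1 its ratio of CPM to FPKM was 4.15 times the gene's own median. Mx1, which C57BL/6 mice are known to carry in a truncated form, had 134, 24.7, 0.794, 14.6 and 1.66 CPM in metastasis libraries 1 to 5, against 0.184, 0.143, 0.329, 0.365 and 13.7 CPM in normal lung libraries 1 to 5. Both groups held libraries far apart, and normal library 5 was above metastasis libraries 3 and 5 (3.58 ± 1.43, edgeR adjusted p = 0.0794; DESeq2 adjusted p = 0.0244). Normal lung library 5 held 507 counts of Mx1 but was listed at 0.194 FPKM, so the ratio of CPM to FPKM there was 21.6 times the gene's own median over the libraries. Without that library Mx1 was at 7.08 (adjusted p = 0.0029), and without metastasis replicate 1 at 1.80 (0.434).

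The PARP genes showed no called change. PARP9 and DTX3L form a complex that modifies histones, and PARP14 is a further ADP-ribosyltransferase. Parp14 had 243, 619, 172, 230 and 178 CPM in metastasis libraries 1 to 5, against 405, 395, 422, 505 and 253 CPM in normal lung libraries 1 to 5. Metastasis library 2 was the highest of all 10 and the other 4 were below every normal library (-0.46 ± 0.40, edgeR adjusted p = 0.482; 1.98 with pan-endothelial scaling). Parp9 averaged 56.7 ± 14.9 CPM in metastases and 52.6 ± 14.1 CPM in normal lung (0.11 ± 0.56, edgeR adjusted p = 0.921). Dtx3l averaged 98.8 ± 66.3 CPM in metastases and 125 ± 45.7 CPM in normal lung (-0.34 ± 0.50, edgeR adjusted p = 0.698; 2.38 with pan-endothelial scaling). Parp9 and Dtx3l overlap on opposite strands, so reads from the overlap cannot be told apart if strand was not used.

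Of the 6 remaining genes 1 rose. Ifi44, a protein that slows cell division (chromosome 3, 151730922 to 151749960), had 483, 175, 943, 612 and 470 CPM in metastasis libraries 1 to 5, against 141, 36.3, 235, 248 and 303 CPM in normal lung libraries 1 to 5. Metastasis library 2 lay within the normal range and the other 4 above it. Ifi44 rose 2.78-fold (1.48 ± 0.49 SE, n = 5 each, edgeR adjusted p = 0.0336). The call was lost with DESeq2 (0.0634), with limma on log2(FPKM + 1) (0.0563), and without any 1 of normal lung replicates 1 (0.0878), 2 (0.0713) and 3 (0.053) and metastasis replicates 3 (0.102) and 4 (0.0651). It was also lost within libraries 1 and 2 alone (0.141) and without both metastasis replicates 4 and 5 (0.0897). Samd9l, which blocks translation in infected cells, had 621, 251.9, 963, 490 and 472 CPM in metastasis libraries 1 to 5, against 342, 310, 719, 536 and 627 CPM in normal lung libraries 1 to 5. The groups overlapped (0.14 ± 0.39, edgeR adjusted p = 0.841). Ifi35, a partner of NMI, had 2.23 to 26.8 CPM in metastases and 6.28 to 98.7 CPM in normal lung (-1.97 ± 0.96, edgeR adjusted p = 0.16; 0.51 with pan-endothelial scaling), and was at -2.96 without metastasis replicate 2 (adjusted p = 0.0447). Rtp4, a chaperone of receptors, varied little, at 85.3 ± 11.9 CPM in metastases and 98.2 ± 29.0 CPM in normal lung (SD, n = 5 each; -0.20 ± 0.47, edgeR adjusted p = 0.811; 2.58 with pan-endothelial scaling). Xaf1, which promotes cell death, averaged 70.8 ± 39.4 CPM in metastases and 99.1 ± 28.5 CPM in normal lung (-0.48 ± 0.52, edgeR adjusted p = 0.581; 1.94 with pan-endothelial scaling). Trim30a, a regulator of signalling by Toll-like receptors, averaged 181 ± 91.0 CPM in metastases and 126 ± 33.5 CPM in normal lung (0.52 ± 0.44, edgeR adjusted p = 0.46).

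Per transcript length, the same genes led in both groups. Ifitm3 had the highest FPKM, with means of 806 ± 368 in metastases and 378 ± 57.1 in normal lung (SD, n = 5 each). Oasl2 followed with 251 ± 110 in metastases and 256 ± 103 in normal lung, and Ifitm2 with 141 ± 103 in metastases and 229 ± 76.8 in normal lung. Trim25 was the next in metastases, at 135 ± 53.9 FPKM, within the spread of Ifitm2, and Ifnar2 the next in normal lung, at 143 ± 49.0 FPKM. A mean above 100 FPKM was found for 6 members in metastases and for 4 in normal lung, and a mean above 1 FPKM for all 39 in metastases and for 36 in normal lung. The 3 below 1 FPKM in normal lung were Oas3 at 0.602, Ifitm1 at 0.360 and Mx1 at 0.118. Oas3 ranked 12 of 39 members in metastases and 37 of 39 in normal lung, and Ifnar2 ranked 15 in metastases and 4 in normal lung.

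**Figure D4:**
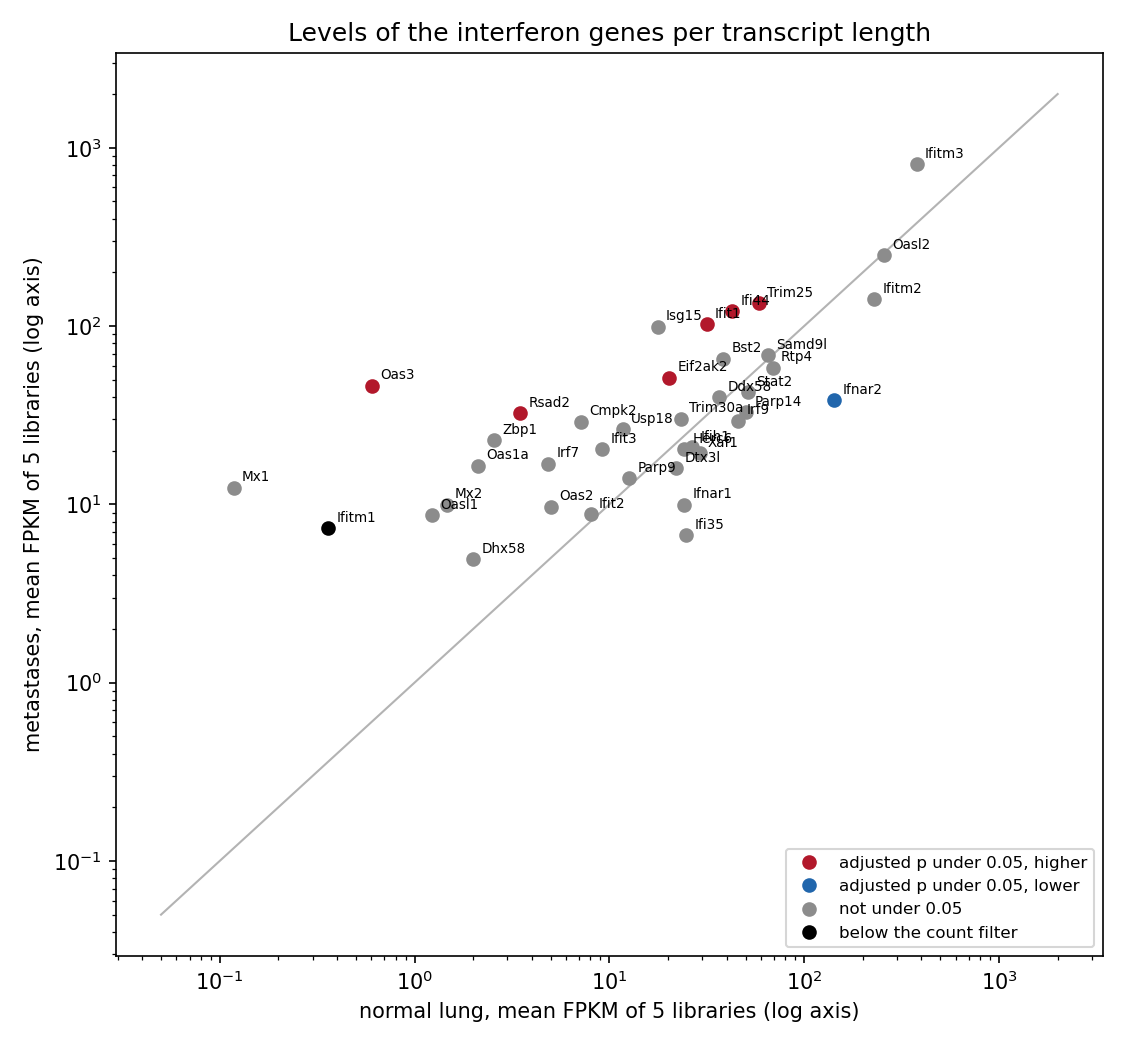
Mean FPKM of the 39 genes in metastases (y axis) against normal lung (x axis), both log axes, with the line of equal values. Ifitm3 and Oasl2 lead in both groups, and Oas3 lies farthest above the line among the genes that passed.

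The metastasis libraries did not raise the members in step. The median member lay 0.47 to 0.83 above the normal mean on the log2 scale in each metastasis library, and between -0.08 and 0.34 in the normal libraries. The members took 0.568 to 0.73% of gene counts in metastases and 0.365 to 0.47% in normal lung. Metastasis library 3 held the highest value of its group for 12 members and the lowest for 14. It was the highest for Oas3, Isg15, Eif2ak2, Ifi44, Mx2 and Stat2, among others, and the lowest for Oas1a, Oasl1, Mx1, Bst2, Usp18 and Ifnar2. The coefficient of variation over libraries had a median of 0.607 in metastases and 0.398 in normal lung, and was larger in metastases for 24 of 39 members. It was lowest for Rtp4 in metastases (0.139) and for Trim25 in normal lung (0.141), and highest for Ifitm1 in metastases (1.63) and for Mx1 in normal lung (2.04).

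Further genes induced by interferon were called more often upwards than downwards, as were the members and all tested genes (1420 up and 972 down). Of 54 such genes, which were listed apart from the members, 50 were tested, 10 rose and 2 fell, against the same 12.0% and 8.22% of all tested genes, and their median log2 fold change was 0.34. Slfn8, a member of the schlafen family, had 82.3, 118, 4.02, 119 and 120 CPM in metastasis libraries 1 to 5, against 0.888, 0.729, 1.20, 1.10 and 0.945 CPM in normal lung libraries 1 to 5. It was higher in every metastasis library, least so in library 3, and rose 91.2-fold (6.51 ± 0.90 SE, edgeR adjusted p = 1.84e-05). Ifi27l2a, a small mitochondrial protein, had 1.96, 9.0, 0.794, 4.09 and 9.48 CPM in metastasis libraries 1 to 5, against 0.0459, 0.215, 0.0471, 0.0522 and 0.189 CPM in normal lung libraries 1 to 5. Levels were low in both groups, which did not overlap (44.8-fold; 5.49 ± 1.55, edgeR adjusted p = 0.0136). It missed the threshold with both metastasis replicates 4 and 5 left out (0.0626) and within each set alone, libraries 1 and 2 (0.281) or 3 to 5 (0.0512). Ifi30, a lysosomal thiol reductase of antigen-presenting cells, had 103, 84.6, 358, 67.6 and 42.1 CPM in metastasis libraries 1 to 5, against 4.52, 1.00, 2.24, 5.61 and 1.38 CPM in normal lung libraries 1 to 5. It rose 44.4-fold (5.47 ± 0.80, edgeR adjusted p = 3.29e-05), in libraries where the summed macrophage genes were higher too. Slfn5, a further schlafen gene, had 766, 329, 589, 379 and 188 CPM in metastasis libraries 1 to 5, against 992, 930, 895, 920 and 1080 CPM in normal lung libraries 1 to 5. It fell 2.14-fold with no overlap between groups (-1.10 ± 0.37, edgeR adjusted p = 0.0386), missed the threshold when any 1 of 8 libraries was left out, all but metastasis replicates 1 and 3 (0.0501 to 0.102), and was at 1.17 with pan-endothelial scaling. It also missed the threshold with DESeq2 (0.123) and RLE scaling (0.0984), within libraries 1 and 2 alone (-0.79, 0.486), within libraries 3 to 5 alone (-1.34, 0.0512) and without both metastasis replicates 4 and 5 (-0.81, 0.18). Shisa5, which resides in the endoplasmic reticulum, had 129, 117, 53.2, 63.8 and 47.2 CPM in metastasis libraries 1 to 5, against 518, 376, 99.9, 176 and 85.3 CPM in normal lung libraries 1 to 5. The groups overlapped, and Shisa5 fell 3.06-fold (-1.61 ± 0.52, edgeR adjusted p = 0.029; 0.94 with pan-endothelial scaling). It missed the threshold when normal library 1 (0.135) or 2 (0.0769) or metastasis library 4 (0.0639) or 5 (0.07) was left out, and within libraries 1 and 2 alone (0.0978) and libraries 3 to 5 alone (0.186).

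Genes that produce or relay the signal passed in both directions. Of 34 listed genes of ligands, other receptors, kinases, sensors, adaptors and inhibitors, 29 were tested, 2 rose, against 12.0% of all tested genes, and 4 fell, against 8.22%. Their median log2 fold change was -0.07. The list held 4 genes of type I interferons. Ifna2 and Ifna4 had no count in any library, which allows up to 0.0359 to 0.149 CPM per library (3 counts), and Ifnb1 had 3 counts in metastasis library 5 and none elsewhere. Such limits cover counting error only, and leave out reads aligned to more than 1 place, which were not counted. Type I interferon genes outside the list were not looked at. Ifnk, the interferon kappa known from skin keratinocytes, had 0.203, 0.0306, 6.30, 0.0290 and 3.38 CPM in metastasis libraries 1 to 5, against 7.44, 0.478, 0.518, 0.287 and 11.8 CPM in normal lung libraries 1 to 5. By CPM a pair of libraries in each group was far above the others, and Ifnk did not pass (-1.05 ± 1.55, edgeR adjusted p = 0.696). On FPKM the normal pair, libraries 1 and 5, was at 3.95 and 14.7. Metastasis libraries 3 and 5 were at 0 and 0.489 FPKM, so the 2 units disagree on the metastasis pair. Tmem173, the adaptor STING of DNA sensing, had 81.8, 63.4, 42.9, 95.5 and 46.4 CPM in metastasis libraries 1 to 5, against 0.551, 3.83, 7.46, 0.704 and 0.756 CPM in normal lung libraries 1 to 5. The groups were far apart, and Tmem173 rose 24.8-fold (4.63 ± 0.91 SE, edgeR adjusted p = 0.000792). Tlr7, an endosomal sensor of single-stranded RNA found in macrophages and dendritic cells, had 97.2, 54.0, 22.9, 48.3 and 60.7 CPM in metastasis libraries 1 to 5, against 0.475, 1.10, 7.01, 8.87 and 6.67 CPM in normal lung libraries 1 to 5. It rose 11.7-fold without overlap (3.55 ± 0.89, edgeR adjusted p = 0.00584), and missed the threshold in libraries 3 to 5 alone (2.53, 0.0704).

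The 4 fallen genes were Ifngr1, Irf1, Tlr3 and Ifngr2, and all 4 had fitted values above 0 when scaled to the pan-endothelial genes (0.07, 0.35, 0.70 and 1.22 in that order, adjusted p from 0.18 to 0.951). Tlr3, the endosomal sensor of double-stranded RNA, had 34.9, 93.4, 222, 116 and 47.0 CPM in metastasis libraries 1 to 5, against 355, 171, 386, 416 and 410 CPM in normal lung libraries 1 to 5. Metastasis library 3 and normal library 2 overlapped, and Tlr3 fell 3.39-fold (-1.76 ± 0.48 SE, edgeR adjusted p = 0.0101). It missed the threshold within libraries 1 and 2 alone (-2.01, 0.129) and without metastasis replicates 4 and 5 (-1.62, 0.0527). Irf1, a factor of the interferon gamma response, had 18, 44.7, 94.9, 29.3 and 8.00 CPM in metastasis libraries 1 to 5, against 251, 208, 130, 97.4 and 85.2 CPM in normal lung libraries 1 to 5. Metastasis library 3 alone reached the normal range. Irf1 fell 3.96-fold (-1.99 ± 0.61, edgeR adjusted p = 0.0215) and missed the threshold when normal library 1 (0.0644) or 2 (0.0503) was left out. It was at -1.26 within libraries 3 to 5 alone (0.313), and at -1.59 with both metastasis replicates 4 and 5 left out (0.106). Ifngr1 and Ifngr2 encode the interferon gamma receptor. Ifngr1 had 62.7, 14.3, 6.95, 12.5 and 9.45 CPM in metastasis libraries 1 to 5, against 132, 59.0, 64.3, 63.5 and 124 CPM in normal lung libraries 1 to 5. Ifngr2 had 24.2, 45.2, 33.2, 41.2 and 40.1 CPM in metastasis libraries 1 to 5, against 150, 162, 112, 51.9 and 87.1 CPM in normal lung libraries 1 to 5. Metastasis library 1 overlapped the normal range for Ifngr1, and no library did for Ifngr2. The fitted changes were -2.06 ± 0.69 (edgeR adjusted p = 0.0347) for Ifngr1 and -1.61 ± 0.53 (0.0337) for Ifngr2. Ifngr1 missed the threshold in 6 of the 10 fits that left out 1 library (normal 1 and 5, metastasis 2 to 5; 0.0528 to 0.0846) and Ifngr2 in 5 (normal 1 to 3, metastasis 4 and 5; 0.0578 to 0.089). Within libraries 1 and 2 alone both missed it (0.525 for Ifngr1 and 0.161 for Ifngr2), as they did without both metastasis replicates 4 and 5 (0.169 for Ifngr1 and 0.0883 for Ifngr2), and Ifngr2 missed it within libraries 3 to 5 alone (-1.15, 0.249) and with library totals (0.0952). The kinase genes Jak1 at -0.33 ± 0.38 (edgeR adjusted p = 0.603) and Tyk2 at 1.35 ± 1.12 (0.45) did not pass. Tyk2 had 236 CPM in metastasis library 1, 1.29 to 5.40 CPM in the other metastasis libraries and 3.62 to 58.3 CPM in normal lung. On FPKM metastasis library 1 was at 6.14, within the normal range of 0.925 to 10.3, so the 2 units disagree there.

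**Figure D5:**
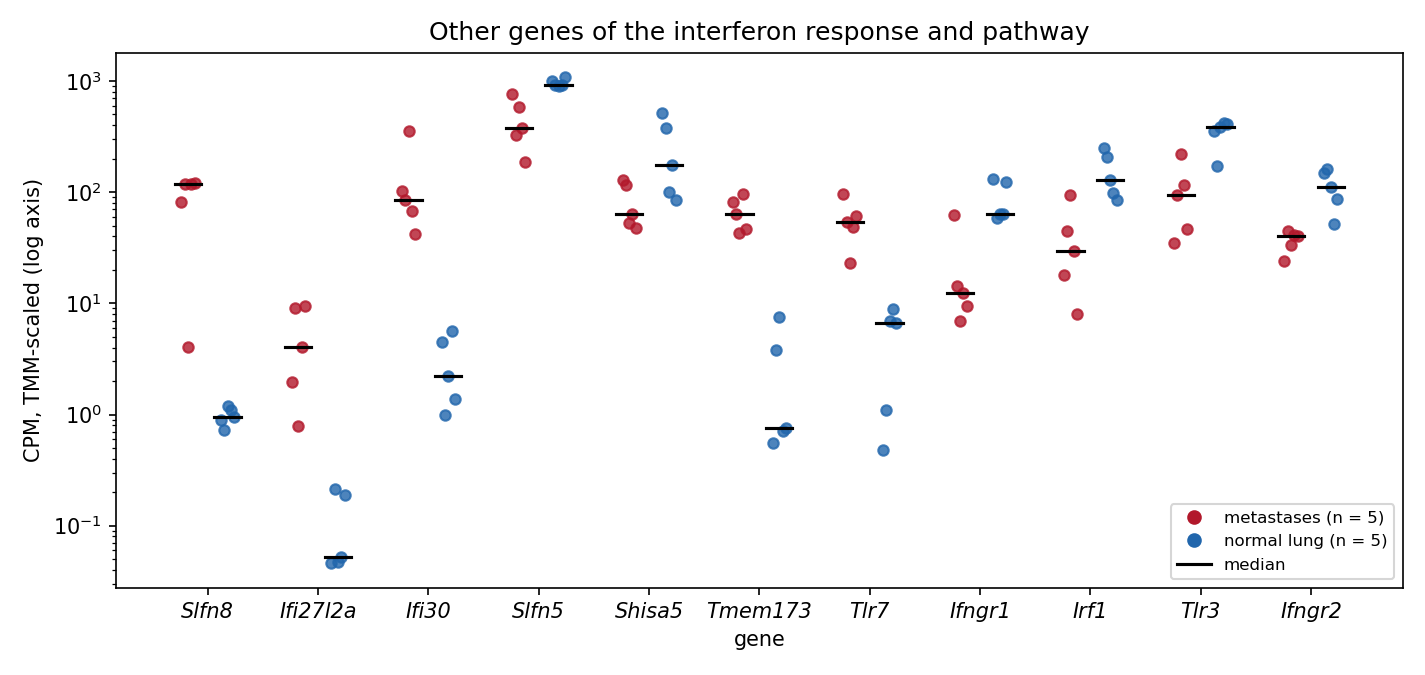
CPM on a log axis of 11 genes of the interferon response and pathway outside the 39, with 1 point per library, metastases left and normal lung right of each pair, and a bar at the median. Slfn8, Ifi27l2a, Ifi30, Tmem173 and Tlr7 lie higher in all metastasis libraries, and the remaining 6 lie lower by the median on this scaling but had fitted values above 0 when scaled to the pan-endothelial genes.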

How the data were processed

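RNA was sequenced from sorted cells of 5 metastasis and 5 normal lung libraries. Per the submitters' processing notes, the tools included HTSeq 0.6.1, TopHat2 2.0.13, DESeq2 1.6.3 and Cufflinks 2.2.1, with mm10 and GRCm38 as builds. Which annotation was used, and whether strand was, is not given in the sources used here. The deposited counts are whole numbers per gene with HTSeq summary categories, and the categories were left out of library sizes. Reads in no annotated feature were 55.4 to 73.7% of all counted entries. The authors also deposited FPKM (fragments per kilobase and 1e6 mapped fragments) for 24460 genes, and each FPKM column had its highest rank correlation with the counts of its own sample.

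Of 24538 genes, 11823 passed filterByExpr (minimum count 10). Groups were compared with edgeR 4.0.16 in R 4.3.3 (TMM scaling, quasi-likelihood F test, two-sided, Benjamini-Hochberg adjustment over all tested genes, threshold 0.05). The SE of a log2 fold change is its size over the square root of F. The fit was tested on simulated data, but the outcome is not given here, so nothing is claimed from it about the error rate. Alternatives were DESeq2 1.42.0, other scalings and filters, limma 3.58.1 on log2(FPKM + 1) and log2(FPKM + 0.1), a threshold of 0.01, a replicate block, sets of libraries and leaving out each library. Sums of marker genes were compared by exact permutation over all 252 splits. Positions are from GENCODE M21 (GRCm38) and promoters from RefSeq (GRCm38.p6).

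The members and the gene lists were chosen with earlier results of these data known. Values in every library are given for genes that passed and for the most abundant gene of each role, and for the 3 largest called changes each way in the lists of other genes. Genes outside this rule are named where they complete a small count or were singled out after their values were seen. The labels do not say whether the libraries of a group came from separate mice, so p-values measure the spread between these libraries, which may be partly technical.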

Additional observations from a re-analysis of the deposited data

Results flagged for a closer look

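In 14 of 78 groups of 5 libraries, 2 groups for each of the 39 genes, the highest or lowest CPM stood apart from the others by more than 0.71 of the group's range. Chance alone does this in about 1 of 20 groups of normally spread values. The CPM were taken without logs and their spread was not tested for normality, so that rate may not apply and no excess is claimed. In metastases the outlying libraries were replicate 3 for Ifnar2 (13.2 CPM, the next 50), Stat2 (342, the next 142) and Mx2 (63.3, the next 17.9), replicate 2 for Ifitm1 (17.7, the next 4.06), Parp14 (619, the next 243) and Ifi35 (26.8, the next 5.69), and replicate 1 for Mx1 (134, the next 24.7) and Rtp4 (64.7, the next 85.5). In normal lung they were replicate 2 for Irf7 (40.4, the next 6.84) and Zbp1 (21.5, the next 3.22), replicate 5 for Mx1 (13.7, the next 0.365) and Parp9 (76.7, the next 49.8), replicate 4 for Ifitm1 (0.782, the next 0.0612) and replicate 1 for Cmpk2 (82.3, the next 24.3). The 0.194 FPKM listed for Mx1 in normal lung replicate 5 stands against 13.7 CPM. For Cmpk2, normal lung replicate 1 did not stand apart on FPKM (8.5, the next 7.9).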

How the results depend on the processing

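The counts of 6 risen and 1 fallen members depended on the processing, and the cause was not tested unless stated. DESeq2 gave 11 risen members and 6 risen pathway genes, and 2380 risen and 1663 fallen genes in all. A threshold of 0.01 left 2 risen members (Oas3 and Rsad2), 6 risen and 0 fallen further interferon genes, 0 fallen pathway genes, and 869 and 453 genes in all. Scaling to the pan-endothelial genes raised the median of all genes from 0.06 to 2.66 by construction. It gave 33 and 0 members, a member median of 3.50, 38 and 0 further interferon genes, 17 and 0 pathway genes and 6661 and 19 genes in all, and turned round Ifi35 (0.51), Ifitm2 (1.505), Ifnar1 (1.15), Irf9 (1.72), Dtx3l (2.38), Herc6 (2.10), Ifih1 (2.70), Ifnar2 (0.60), Parp14 (1.98), Rtp4 (2.58), Stat2 (2.03), Xaf1 (1.94), Ifngr1 (0.0696), Ifngr2 (1.22), Irf1 (0.35), Shisa5 (0.94), Slfn5 (1.17) and Tlr3 (0.70). With library totals the median was 0.32 over all genes and 1.24 over the members, and Ifih1 (0.0502) and Rtp4 (0.0931) turned round. RLE scaling left 1 fallen further interferon gene. Limma gave member medians of 0.53 and 0.50 on log2(FPKM + 1) and log2(FPKM + 0.1) and 0.58 with no filter, where 0 further interferon genes fell. With fewer samples, libraries 1 and 2 alone gave 3 and 0 members, a median of 0.44, 6 and 0 further interferon genes, 1 fallen pathway gene and 487 and 201 genes in all. Libraries 3 to 5 alone gave 1 fallen further interferon gene and 1 risen and 2 fallen pathway genes. Without metastasis replicates 4 and 5 there were 0 fallen genes in both lists and 527 fallen in all. Among members that did not pass, the sign also turned for Oasl2 with no filter (-0.0125), for Samd9l with limma (-0.0508, -0.0535 and -0.0508 in the order above), in libraries 1 and 2 alone for Cmpk2 (-0.32), Herc6 (0.50), Ifit2 (-0.67), Ifit3 (-0.0936), Parp14 (0.13), Usp18 (-0.38) and Xaf1 (0.0762), in libraries 3 to 5 alone for Ddx58 (-0.18), Oasl2 (-0.11), Parp9 (-0.10) and Stat2 (0.000849), and without metastasis replicates 4 and 5 for Ifit2 (-0.0171), Parp9 (-0.0144) and Usp18 (-0.32). A term for libraries 1 and 2 gave 2 fallen members.

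Leaving out 1 library at a time gave 4 to 7 risen members, 1 to 2 fallen members, member medians from 0.55 to 0.95, 9 to 12 risen and 0 to 3 fallen further interferon genes, 2 to 3 risen and 1 to 5 fallen pathway genes, and 1302 to 1440 risen and 792 to 1114 fallen genes in all. The sign of members near 0 also turned, within -0.0738 to 0.95 for Ifit2, -0.171 to 0.144 for Oasl2, -0.047 to 0.253 for Parp9 and -0.17 to 0.322 for Samd9l. Fallen pathway genes came to 1 without normal lung replicate 1, and to 2 without normal lung replicate 2 or metastasis replicate 4 or 5. Fallen further interferon genes came to 0 without normal lung replicate 1 or 2 or metastasis replicate 4 or 5, and to 1 without normal lung replicate 3, 4 or 5 or metastasis replicate 2. The member median was 0.55 without metastasis replicate 2 and 0.59 without metastasis replicate 4. Ifnar1 and Ifi35, 1 each, joined Ifnar2 without metastasis replicates 3 and 2. The labels give both groups the replicate numbers 1 to 5 but do not say that they pair the samples. Deviations of same-numbered libraries correlated at 0.000682 to 0.142, and 2 of 5 metastasis libraries correlated best with their own number. With the replicate block, 7 members rose, 2 fell and 4 further interferon genes fell. Depth was 21677429 counts or more per library and the common biological coefficient of variation was 1.01.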

Other observations

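The further interferon genes that rose and are not described above were chosen after their values were seen. Slfn9, of the schlafen family like Slfn8, had 261, 206, 451, 399 and 321 CPM in metastasis libraries 1 to 5, against 3.02, 2.44, 10.9, 17.0 and 5.46 CPM in normal lung libraries 1 to 5, and rose 42.3-fold (5.40 ± 0.60 SE, n = 5 each, edgeR adjusted p = 9.26e-07). All metastasis libraries were far above all normal ones. Ifi204, a DNA-binding protein of the IFI200 family found in macrophages, had 80.8, 111, 143, 248 and 181 CPM in metastasis libraries 1 to 5, against 4.81, 1.08, 5.46, 7.22 and 5.05 CPM in normal lung libraries 1 to 5, and rose 32.4-fold (5.02 ± 0.66, edgeR adjusted p = 9.31e-06). Cxcl10, a chemokine for T cells, had 84.8, 233, 43.2, 294 and 283 CPM in metastasis libraries 1 to 5, against 1.87, 6.51, 3.06, 2.48 and 36.6 CPM in normal lung libraries 1 to 5, and rose 18.6-fold (4.22 ± 0.82, edgeR adjusted p = 0.000726). Its highest normal value, in library 5, was close to its lowest metastasis value, in library 3.

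Pnpt1, an RNA-degrading enzyme of mitochondria, rose 4.56-fold, with 234 ± 109 CPM in metastases and 51.5 ± 33.3 CPM in normal lung (SD, n = 5 each; 2.19 ± 0.55, edgeR adjusted p = 0.00584), and missed the threshold within libraries 1 and 2 alone (0.096). Oas1g, of the same family as Oas1a, rose 29.8-fold, with 8.39 ± 5.49 CPM in metastases and 0.279 ± 0.125 CPM in normal lung (4.90 ± 1.40, edgeR adjusted p = 0.0143), and shares near-identical sequence with its neighbours. It missed the threshold within libraries 1 and 2 alone (0.291) and libraries 3 to 5 alone (0.062). Ifit1bl1, a relative of Ifit1, had 0.677 CPM in metastasis library 1, 32.7 to 144 CPM in the other metastasis libraries, and 0.306 to 10.4 CPM in normal lung (4.33 ± 1.23, edgeR adjusted p = 0.0136), and missed the threshold without metastasis replicate 3 (3.34, 0.067) and within libraries 1 and 2 alone (0.177). Ms4a4c was at 4.04 ± 1.28 (edgeR adjusted p = 0.0261) and missed the threshold in 5 of the 10 fits that left out 1 library (normal 1, 3 and 4, metastasis 2 and 4; 0.0541 to 0.0631), and within libraries 1 and 2 alone (0.321), libraries 3 to 5 alone (0.0597) and without both metastasis replicates 4 and 5 (0.069). It had 15.6 ± 12.0 CPM in metastases, where library 1 was at 0.440 CPM, and 0.946 ± 0.565 CPM in normal lung (SD, n = 5 each).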
